A study of Bos taurus with 8 samples.

Results

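Genes of the Polycomb complexes and of chromatin remodeling were examined in cattle, in stem-like cell lines derived from embryos (eSLCs) and in somatic cells (SCs). The set held 10 genes, namely SUZ12, EZH2, EED, JARID2, MTF2, RING1, BMI1, HMGA1, CHD1L and PADI4, and a gene was measured where a probe of the array carried a RefSeq accession of it. By this rule 9 of the 10 genes had a probe, among 12602 genes with a named probe on the array. JARID2, which helps to bring Polycomb complexes to DNA, had no named probe and was not analysed here. The 9 measured genes had 25 probes in all, of which 23 were well above background on all 8 arrays. The other probes, both of PADI4, were at background on all 8 arrays. MTF2 had a single probe.

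Polycomb proteins keep developmental genes silent and act in separate complexes. In Polycomb repressive complex 2 (PRC2), EZH2 adds methyl groups to histone H3, SUZ12 and EED are needed for its activity, and JARID2 and MTF2 are accessory subunits that guide it to its targets. RING1 and BMI1 belong to Polycomb repressive complex 1 (PRC1), which adds ubiquitin to histone H2A. The remaining genes change chromatin in other ways, HMGA1 by binding AT-rich DNA and bending it, CHD1L by sliding nucleosomes after DNA damage, and PADI4 by turning arginines of histones into citrulline.

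Each RNA sample, labelled with 1 dye, was hybridized to its own Agilent bovine array, 8 arrays in all. All animals were HanWoo, Korean native cattle. The eSLCs were grown from blastocysts on inactivated murine STO feeder cells in 3i medium, which holds inhibitors of MEK, of the FGF receptor and of GSK3, and were passaged as colonies, whereas SCs were grown in DMEM with fetal bovine serum. IVP-eSLCs came from embryos produced in vitro (line I2, passage 35, and line I9, passage 30), NT-eSLCs from nuclear transfer embryos (N2, passage 36, and N7, passage 30) and PA-eSLCs from parthenogenetic embryos (P1, passage 31, and P4, passage 36). The donor cells of nuclear transfer came from ear skin. SCs were measured at passages 5 and 10 (SC P5 and SC P10). Each condition thus had only 2 arrays, which sets the precision of all values, and each eSLC array was a different line. The labels do not say whether the SC passages are separate cultures, so p-values measure only the spread between these samples. Whether signal of the feeder cells entered the eSLC arrays was not tested. In bulk RNA, fewer cells of a type and less RNA per cell cannot be told apart.

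Values are normalized signals, that is, background-subtracted intensities divided by the 75th percentile of their array, which was set to 1000, and they cannot be compared between probes. On each array 71.2% to 76.7% of spots were well above background, and the lowest of them lay 75.3- to 136-fold under the 75th percentile. Where a gene had several probes, the brightest was used. Differences are on the log2 scale with standard errors (SE), and a gene was called at an adjusted p under 0.05 (limma, Benjamini-Hochberg over all 10956 genes tested) and a difference of at least 2-fold. Slide 1 carried both IVP lines, N7 and SC P5, and slide 2 carried both PA lines, N2 and SC P10. Of 12 fibroblast markers, 10 were lower in eSLCs in all 3 origins, and 10 of 12 tested trophectoderm markers were higher in eSLCs in all 3 origins. The labels name the SCs only as somatic cells and give no cell type. Of 6 tested epiblast markers, which define pluripotent cells, 2 were called higher in all 3 origins and 1 lower. LIN28A, an RNA-binding protein, had signals of 187 to 316 in eSLCs and was not well above background in SCs, so that it was at least 30.6-fold higher (adjusted p = 2.46e-05, limma), a bound set by the dimmest gene probe that each SC array measured above background. DPPA4, a chromatin protein of pluripotent cells, had 88.2 to 391 while SC P5 had 2.91 and SC P10 22. SOX2, a core factor of pluripotency, was 7.53-fold higher in SCs. NANOG, with signals of 5.8 to 35.4 in the lines and 2.48 to 6.96 in SCs, and POU5F1, with 30.7 to 101 in 5 of the lines, 898 in N7 and 16.3 to 26 in SCs, were not called.

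Of the 9 measured genes, 5 were higher in eSLCs than in SCs over the 3 origins and none was lower. They were SUZ12, MTF2, HMGA1, CHD1L and PADI4. Over all genes tested, 19.7% were called higher and 15.7% lower. The median difference was 1.05 over the 9 genes and 0.23 over all genes tested. The 6 eSLC arrays lay above both SC arrays for 7 of the 9 genes, as for 34% of all genes tested, and below both for RING1, as for 23.6%. EZH2 was the exception, with arrays that overlapped. The same 5 genes were called with the slide as a block. Of 12 housekeeping genes, none was called by limma or by the methods' t-test (1 at an unadjusted p under 0.05). The plot of signals by array shows these levels.

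**Figure D1:**
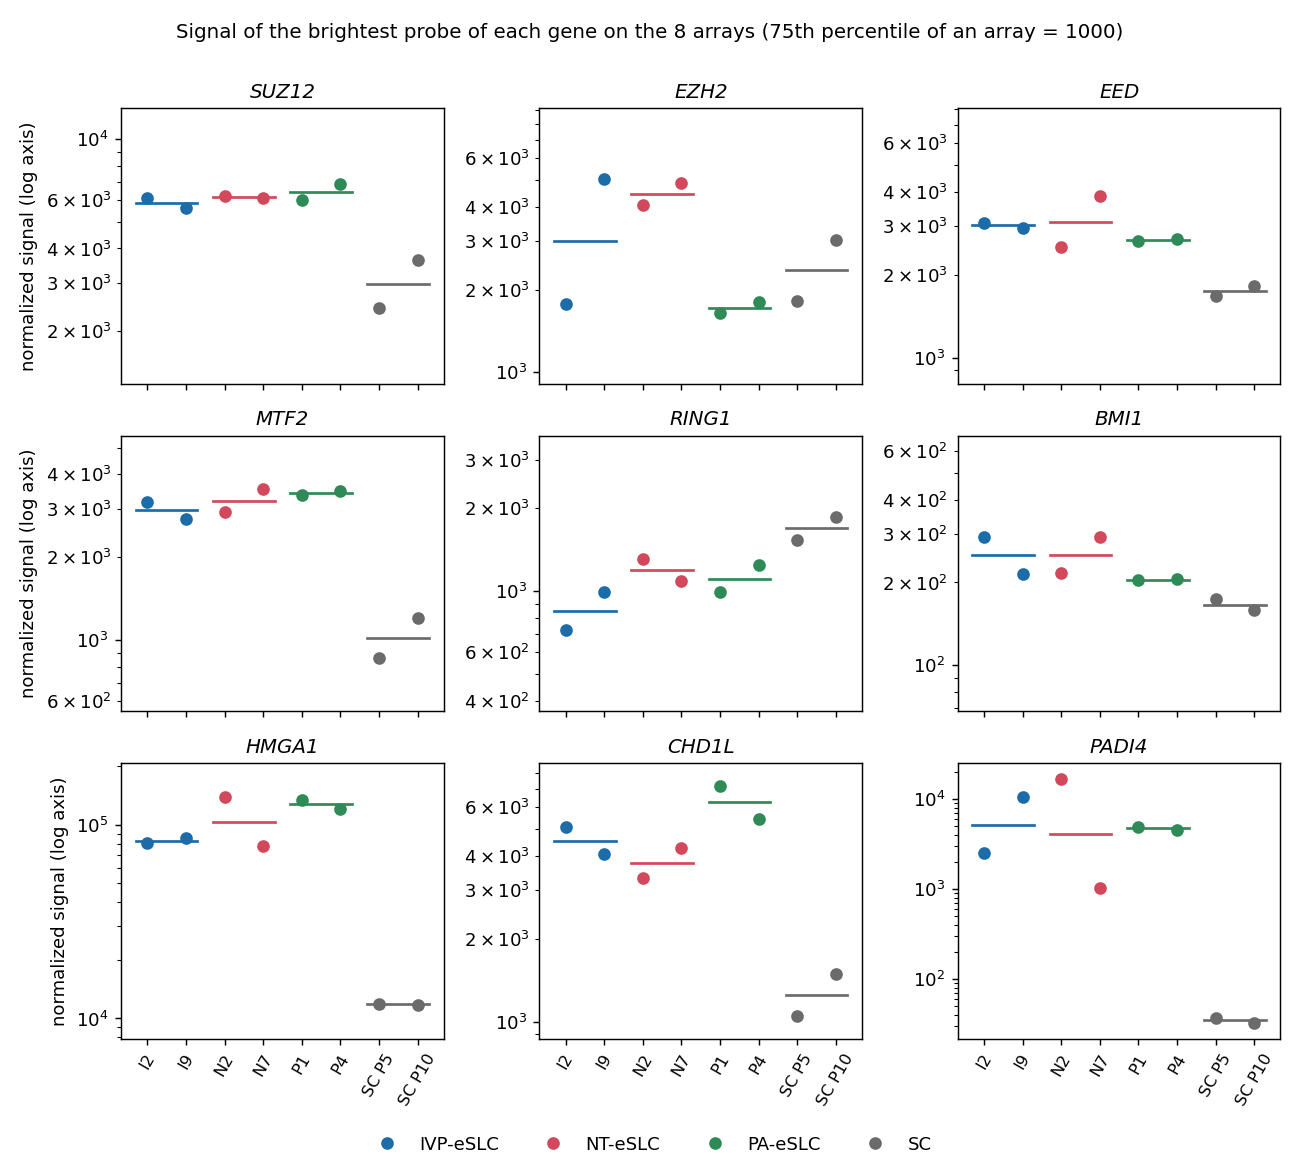
Normalized signal of the brightest probe of each of the 9 measured genes (log axis, 75th percentile of an array at 1000) on each array. Points are arrays, coloured by condition, and bars are the geometric means of the 2 arrays of a condition. The 6 eSLC points of PADI4 spread from 1026 to 16536, those of SUZ12 only from 5596 to 6850.

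Among the core subunits of PRC2, SUZ12 was the most even across lines. Its signals were 6126 in I2, 5596 in I9, 6195 in N2, 6103 in N7, 6013 in P1 and 6850 in P4, while SC P5 had 2437 and SC P10 3619. Every eSLC line was above both SC arrays, and the SC arrays differed from each other more than any pair of lines did. The mean was 2.07-fold higher in eSLCs (log2 difference 1.05, SE 0.196, adjusted p = 0.0071, limma). All 4 probes gave 1.99- to 2.36-fold with no overlap, and the highest line was only 1.13 to 1.3 times the lowest on any of them. The call was lost as the difference went under 2-fold with median scaling (0.9997), with quantile normalization (0.96) and without SC P5 (0.76). It was also lost with the authors' series matrix values (1.14, adjusted p = 0.112, limma). With the scanner software's processed signal it was lost as well (3.66, adjusted p = 0.695, limma). Both differences were over 2-fold. In the processed signal the values of SUZ12 were 9307 in I2, 5473 in N2 and 1.18 to 1.74 on the other arrays. Within slide 1 the difference was 1.28 and within slide 2 it was 0.81.

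The SC arrays differed from each other for SUZ12, EZH2, CHD1L, MTF2 and genes of cell division, and less for other lists. SC P10 was above SC P5 for all 4 probes of SUZ12 and all 6 of EZH2, by 1.48-fold and 1.67-fold on the brightest. The same held for every probe of CHD1L (1.42-fold on the brightest), MTF2 (1.39-fold) and RING1 (1.21-fold). EED and BMI1 were split between their probes. HMGA1 and PADI4 had no probe well above background that was higher in SC P10. SC P10 was also higher for all 17 measured genes of a proliferation list, by a median of 0.77 on the log2 scale, against 45.9% of all genes tested. It was higher for 11 of 12 housekeeping genes (median 0.28) and 12 of 13 ISWI and INO80 genes (median 0.17) as well. The summed signal of the proliferation list was 55153 in SC P5, 100565 in SC P10 and 153862 to 183489 in the eSLC lines. In that list, 11 of 17 genes were called higher in eSLCs and none lower, against 19.7% and 15.7% of all genes tested. CDK1, which drives entry into mitosis, was 3.51-fold higher and AURKA, a kinase of the spindle poles, 4.17-fold higher. The part of proliferation in the differences of SUZ12, MTF2 and CHD1L was not tested.

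EZH2, the methyltransferase of PRC2, differed among lines rather than between eSLCs and SCs. Its signals were 1772 in I2, 5054 in I9, 4057 in N2, 4856 in N7, 1640 in P1 and 1801 in P4, while SC P5 had 1822 and SC P10 3035. I9, N2 and N7 were above both SC arrays, while I2, P1 and P4 were below both. The mean difference from SCs was 0.27 (SE 0.425, adjusted p = 0.627, limma). Its sign was negative within slide 2 (-0.41) and without SC P5 (-0.10), against 0.95 within slide 1. All 6 probes of EZH2, which share 1 gene and are not replicates, put the same 3 lines highest, with the highest line 2.83 to 4.2 times the lowest. None of the 6 probes separated eSLCs from SCs.

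The order of lines did not follow the slide, and it divided the IVP lines while the NT lines were both high and the PA lines both low. The IVP lines were 2.85-fold apart and lay on the same slide, and the high lines I9 and N7 lay on slide 1 and N2 on slide 2. By origin, the difference from SCs was 0.35 in IVP-eSLCs (SE 0.520), 0.92 in NT-eSLCs (SE 0.520) and -0.45 in PA-eSLCs (SE 0.520), with none called.

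The pattern of EZH2 among the lines was shared by genes on its chromosome. The profile nearest to that of EZH2 over the 8 arrays, among 9363 genes well above background on all of them, was that of NUP205, a subunit of the nuclear pore, with a root mean square difference of 0.138 on the log2 scale against a median of 0.833 over all genes. LARP4 (0.235) and VPS50 (0.252) followed. NUP205 and VPS50 lie on the same chromosome as EZH2 in the RefSeq table of the cattle genome (assembly ARS-UCD2.0). This prompted a look at the whole chromosome, chosen after the values were seen. For 251 other genes of that chromosome, the log2 signal in a line was set against the median of the 6 lines, and the median over these genes was then compared with that of 9111 genes on other chromosomes.

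The chromosome's genes were 0.40 higher than the other genes in I9, 0.39 higher in N2 and 0.46 higher in N7. They fell by 0.42 in I2, by 0.39 in P1 and by 0.37 in P4. Both SC arrays were on the high side, at 0.42 in SC P5 and 0.48 in SC P10. The lines above both SC arrays for EZH2 were thus the lines in which the other genes of its chromosome were high. For the lines alone, the medians of these genes spanned 0.83 on the log2 scale, a 1.78-fold range, the widest of the 30 chromosomes compared, and the others spanned 0.07 to 0.51.

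Of the 251 genes, 62.2% had I9, N2 and N7 all above I2, P1 and P4, against 7.49% of genes on the other chromosomes. EZH2 itself spanned 1.62 among the lines, and 0.89 once the chromosome's median was taken off in each line. The medians of the chromosome's genes kept their sign in every array with 2 other signals. With the authors' series matrix values they were -0.25 to -0.17 in I2, P1 and P4 and 0.51 to 0.78 elsewhere. With the scanner software's processed signal they were -0.16 to -0.09 and 0.31 to 0.65. The brightest EZH2 probe did not follow them in either signal. In the scaled matrix it had 1526 in I9 and 1479 in N7, under the 2185 to 2783 of I2, P1 and P4. In the processed signal it had 886 and 931, under 1065 to 1517. The other EZH2 probes had I9, N2 and N7 highest in the matrix. DNA was not measured in these samples, and the part of the chromosome in the EZH2 values was not tested. The chromosomes of the other measured genes spanned 0.09 to 0.36, the widest being that of HMGA1 and RING1, whose genes were 0.27 higher than others in N2. The plot of EZH2 by line sets its probes beside the chromosome's genes.

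**Figure D2:**
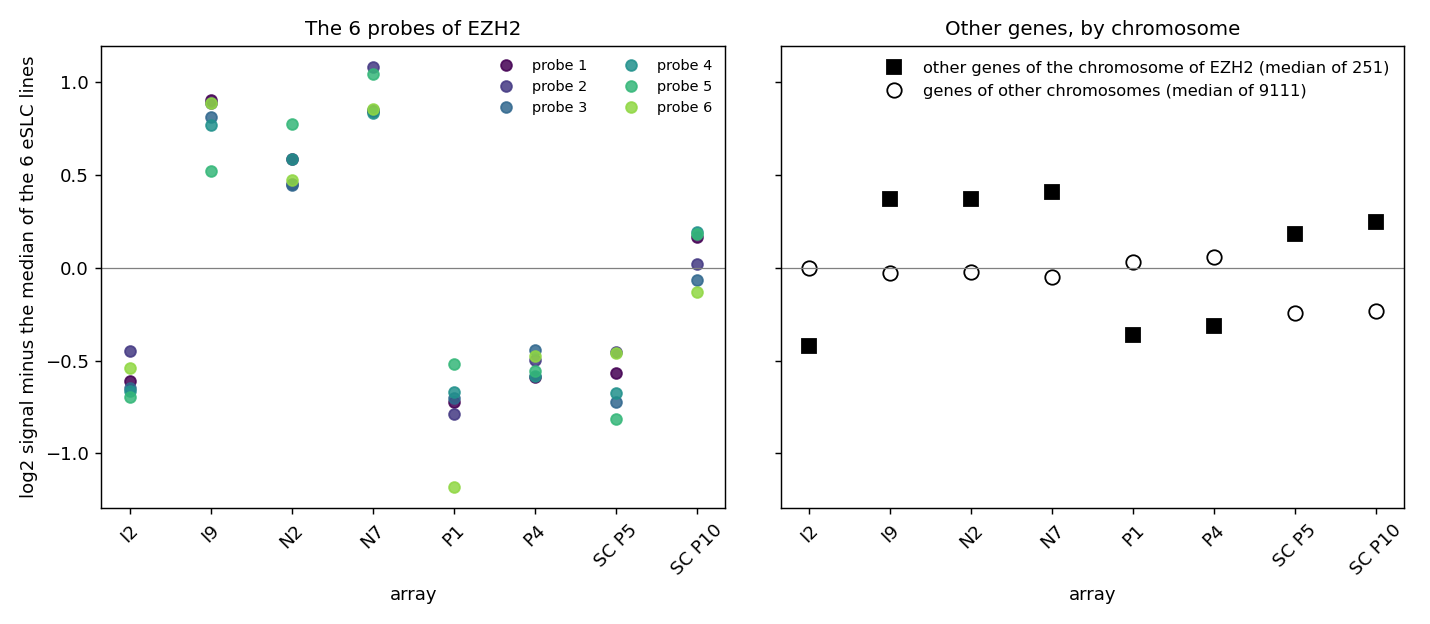
Left, the log2 signal of each of the 6 EZH2 probes on each array minus its median over the 6 eSLC lines. Right, the median of the same difference over 251 other genes of the chromosome of EZH2 (squares) and over 9111 genes of other chromosomes (circles). I9, N2 and N7 lie above 0 and I2, P1 and P4 below 0 in both panels for the chromosome of EZH2, while the circles of the lines stay near 0.

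EED, which binds the methylated histone and stimulates EZH2, was higher in every line. Its signals were 3074 in I2, 2966 in I9, 2517 in N2, 3848 in N7, 2660 in P1 and 2688 in P4, while SC P5 had 1680 and SC P10 1819. No eSLC array overlapped with an SC array on either of its 2 probes, and N7 was the highest line. The mean was 1.68-fold higher (log2 difference 0.74, SE 0.198, adjusted p = 0.0249, limma), which is under 2-fold and was not called.

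MTF2, the accessory subunit of PRC2, had the largest difference among the 6 measured Polycomb genes of the set. Its signals were 3187 in I2, 2764 in I9, 2926 in N2, 3532 in N7, 3368 in P1 and 3493 in P4, while SC P5 had 864 and SC P10 1202. The lines lay close together and all far above both SC arrays. The mean was 3.14-fold higher (log2 difference 1.65, SE 0.191, adjusted p = 0.00114, limma), and the gene was called in each origin, at 1.54 in IVP-, 1.66 in NT- and 1.75 in PA-eSLCs. Over the origins the call was lost with the series matrix values (1.53, adjusted p = 0.0586, limma) and with the processed signal (1.99, adjusted p = 0.323, limma), and in each origin it was lost with these and with the methods' t-test after adjustment (adjusted p of 0.0684 to 0.122). This rests on 1 probe. Its nearest profile was that of C1QBP, a mitochondrial protein, at a root mean square difference of 0.104.

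Of 5 tested PRC2 genes outside the examined set, none was called higher and 1 was called lower. Over all genes tested, the shares were 19.7% and 15.7%, so that these counts are not particular to PRC2. PHF1, an accessory subunit of the same family as MTF2, fell by 1.31 (SE 0.171, adjusted p = 0.0018, limma). Its signals were 1523 to 2328 in the eSLC lines while SC P5 had 5141 and SC P10 4365, so that PHF1 and MTF2 were called in opposite directions in all 3 origins. AEBP2, another accessory subunit, had signals of 1954 to 2540 in the eSLC lines while SC P5 had 1258 and SC P10 1605. All 6 lines were above SCs, and the difference of 0.65 (SE 0.173, adjusted p = 0.0255, limma) was, like that of EED, under 2-fold and not called. RBBP7, a histone-binding subunit, had a difference of 0.56, its relative RBBP4 of 0.00 and PHF19, whose signals were 12.6 to 26.5 over the 8 arrays, of -0.36, and none of these was called.

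RING1, a ubiquitin ligase of PRC1, was the only measured gene with all lines below SCs. Its signals were 724 in I2, 990 in I9, 1312 in N2, 1092 in N7, 990 in P1 and 1244 in P4, while SC P5 had 1538 and SC P10 1854. The groups did not overlap on 2 of its 3 probes, and on the dimmest N2 lay between the SC arrays. SCs were 1.62-fold higher on the mean (log2 difference -0.70, SE 0.207, adjusted p = 0.0352, limma), which is under 2-fold and was not called. The IVP lines were lowest, at -0.996 (SE 0.253, adjusted p = 0.0263, limma), just under the 2-fold limit and past it with median scaling (-1.07), with quantile normalization (-1.02) and without I9 (-1.22).

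BMI1, the PRC1 subunit that works with the RING ligases, changed little. Its signals were 292 in I2, 215 in I9, 217 in N2, 291 in N7, 204 in P1 and 205 in P4, while SC P5 had 174 and SC P10 159. The lines were above both SC arrays on this probe, while on the other probe P1 and I9 were below SC P10. The mean difference was 0.50 (SE 0.198, adjusted p = 0.0853, limma) and was not called.

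Other PRC1 genes moved in both directions. Of 17 tested, 1 was called higher and 3 lower, with a median difference of -0.19. Over all genes tested, 19.7% were called higher and 15.7% lower, with a median of 0.23. PCGF6, which takes the place of BMI1 in a variant of PRC1, was 2.6-fold higher, with signals of 138 to 266 in eSLCs while SC P5 had 65.9 and SC P10 82.3. CBX6, a reader of the methyl mark set by PRC2, was 3.64-fold higher in SCs, with signals of 770 to 1200 in eSLCs while SC P5 had 4186 and SC P10 3236. Both were called in all 3 origins. The other calls, PHC1 and PHC2, are outside the rule for named genes and are named because they complete the count. Of the genes that remove the PRC2 or PRC1 marks, 2 were tested and none was called by limma or by the methods' t-test (1 at an unadjusted p under 0.05).

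HMGA1, the architectural protein, was higher in every line by a wide margin. Its signals were 80458 in I2, 84993 in I9, 138296 in N2, 77527 in N7, 134901 in P1 and 120679 in P4, while SC P5 had 11888 and SC P10 11801. The lowest line, N7, was 6.55 times the SC mean, and the lines fell within a 1.78-fold range. On this probe the lines of slide 2 (N2, P1 and P4) were all above those of slide 1. Within slide 1 the difference from SCs was 2.77 and within slide 2 it was 3.47. The mean was 8.7-fold higher (log2 difference 3.12, SE 0.241, adjusted p = 0.000237, limma). The second probe gave 14.8-fold with another order of lines, P4 being the lowest (2500). The gene was called in each origin, at 2.80 in IVP-, 3.13 in NT- and 3.43 in PA-eSLCs, and its call over the 3 origins was kept under all 20 alternatives. The size was not kept, since the difference was 8.45 with the series matrix values and 8.92 with the processed signal. In NT-eSLCs the call was lost with the methods' t-test (adjusted p = 0.102). Its nearest profiles were those of EFNA1 (root mean square difference 0.133), an ephrin ligand, BASP1 (0.235) and TUBA1C (0.239), a tubulin.

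Of 9 other genes of the high mobility group families tested, 2 were called higher and 1 lower, with a median difference of 0.25, close to the shares and the median over all genes tested (19.7%, 15.7% and 0.23). HMGB3 was 2.26-fold higher and called in all 3 origins, with signals of 410 to 665 in eSLCs while SC P5 had 219 and SC P10 239. HMGN1 (higher) and HMG20B (lower), which complete the count, were not called in every origin. HMGB1 had a difference of 0.76 (SE 0.200, adjusted p = 0.0242, limma), under 2-fold and not called.

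CHD1L, the nucleosome remodeler, was higher in every line. Its signals were 5100 in I2, 4045 in I9, 3326 in N2, 4262 in N7, 7178 in P1 and 5441 in P4, while SC P5 had 1046 and SC P10 1487. The PA lines were the 2 highest and N2 the lowest, and no line overlapped with SCs. The mean was 3.81-fold higher (log2 difference 1.93, SE 0.233, adjusted p = 0.00134, limma), and the second probe gave 3.55-fold with the same lines highest. By origin the difference from SCs was 1.86 in IVP-, 1.59 in NT- and 2.33 in PA-eSLCs, each called. With the processed signal the call was lost over the origins (2.51, adjusted p = 0.197, limma) and in each origin, and by origin it was also lost with the methods' t-test (adjusted p of 0.0696 to 0.139), in IVP- and PA-eSLCs with the series matrix values (adjusted p of 0.111 and 0.127, limma) and in NT-eSLCs without SC P5 (1.34, adjusted p = 0.0573, limma). The nearest profiles were those of SUDS3, a subunit of a histone deacetylase complex, SFT2D1 and CPEB3, at root mean square differences of 0.147 to 0.172.

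Other nucleosome remodelers were not called higher as a group. Beside the counts that follow, 19.7% of all genes tested were called higher and 15.7% lower. Of the CHD and NuRD genes, 12 were tested and none was called by limma or by the methods' t-test (4 at an unadjusted p under 0.05). Of 13 ISWI and INO80 genes 1 was called higher, CHRAC1, which is named to complete the count. Of 19 SWI/SNF genes none was called higher and 5 lower. SMARCD3, a subunit known from heart and muscle, had signals of 16.2 to 31.5 in eSLCs while SC P5 had 921 and SC P10 803, so that SCs were 40.9-fold higher. ACTL6B, an actin-like subunit known from neurons, was 3.08-fold higher in SCs. Both were called in all 3 origins, and SMARCA2, SMARCC2 and BCL7B, which complete the count, were not called in each origin. Of 7 genes of the Trithorax group complexes, which methylate histone H3 at active genes, 2 were called higher, WDR5 and DPY30, which complete the count, and none lower. DPY30 was also the second nearest profile of SUZ12, at a root mean square difference of 0.094.

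**Figure D3:**
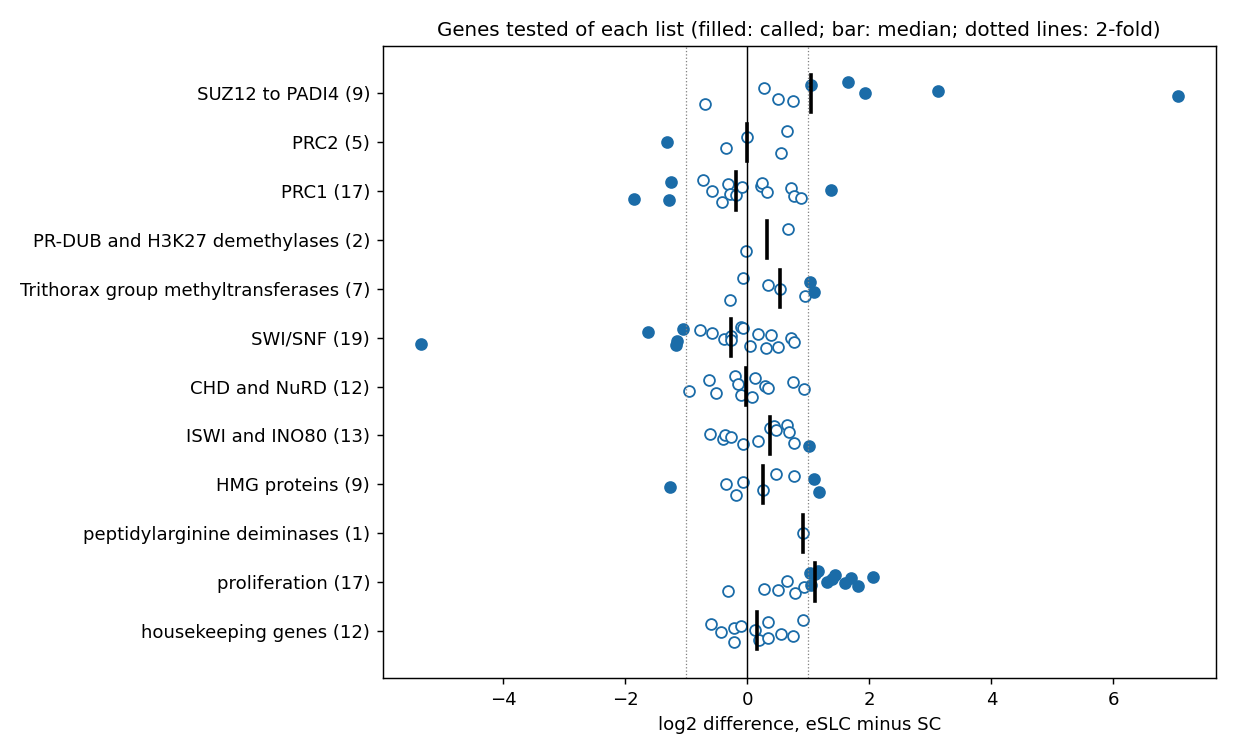
Log2 difference, eSLC minus SC, of each gene tested in the 9 measured genes (first line) and in lists of related genes, with the number of genes in parentheses. Filled points were called, bars are medians and dotted lines mark 2-fold. The first line has a median of 1.05, PRC2 of 0.00, PRC1 of -0.19, SWI/SNF of -0.27 and proliferation of 1.11.

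PADI4, the histone deiminase, had the largest difference of the set and the widest spread among lines. Its signals were 2480 in I2, 10542 in I9, 16536 in N2, 1026 in N7, 4903 in P1 and 4531 in P4, while SC P5 had 37.2 and SC P10 32.7. N2 was 16.1 times N7, a line of the same origin, and I9 was 4.25 times I2, while the PA lines were alike. Even so, the lowest line was 29.4 times the SC mean. The mean was 133-fold higher (log2 difference 7.05, SE 1.08, adjusted p = 0.0033, limma), and the gene was called in each origin, at 7.20 in IVP-, 6.88 in NT- and 7.08 in PA-eSLCs. Its SE is set by the lines, and the call was missed at an adjusted p of 0.0525 without SC P5, of 0.052 without SC P10 and of 0.0534 with the SC arrays counted as 1 sample (limma), with differences of 6.96 to 7.14. The same settings ended the call in each origin, and the methods' t-test ended it in IVP- and NT-eSLCs (adjusted p of 0.0851 and 0.198). It was also lost in PA-eSLCs without P1 (adjusted p = 0.0534, limma) and in NT-eSLCs with only the conditions compared (adjusted p = 0.0622, limma).

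This difference rests on 1 probe, since the other 2 probes of PADI4 were not well above background on any array, eSLC arrays included. With the mean of the 3 probes the difference was 2.35. The line order of PADI4 was that of some trophectoderm markers and not of others. Their summed signal was lowest in N7 (506025) and highest in N2 (1447950), and 19150 to 19872 in SCs. The line order of this sum was not particular to trophectoderm markers. For the 12 housekeeping genes the sum was also lowest in N7 (823224), with 1802450 in N2 and the highest value in P1 (1911030). PAG2, a pregnancy-associated glycoprotein of the trophectoderm, had 38028 in N7, 74817 in I2, 118782 in P4, 146073 in P1, 159879 in I9 and 274766 in N2, the same order as PADI4, and was not well above background in SCs. KRT18 and GATA3, the other trophectoderm genes named by the same rule, were also lowest in N7 but had other orders above it. Other trophectoderm factors, named after their values were seen, ran both ways. TFAP2A had the same order as PADI4, from 2753 in N7 to 11981 in N2. It was not called, with 9013 in SC P5 and 9771 in SC P10. CDX2 was lowest in I9 (5183), while TFAP2C (9294) and ELF5 (759) were lowest in N2, where PADI4 was highest. The summed signal of 5 hypoblast markers was 128626 in N7, 3631 to 8870 in the other lines and 12838 to 14732 in SCs. Most of the sum in N7 was APOA1, an apolipoprotein, at 112600, and GATA4 (2918) and HNF4A (9022) were also highest in N7, while SOX17 was 2664 in N7 and 1908 to 2946 in the other lines. The part of the mix of cell types in the PADI4 values was not tested.

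Of the deiminase family, PADI1 alone had another named probe. Its signals were 4.84 in N7, 19.2 in P4 and 30.7 to 46 in the other lines, while SC P5 had 16.1 and SC P10 14.4, and its difference was 0.91 (SE 0.477, adjusted p = 0.167, limma). PADI2 had no named probe and was not analysed here. The nearest profiles of PADI4 were those of RNF128, CKMT1A and CXADR, an adhesion protein of epithelia, but at root mean square differences of 0.562 to 0.699. SYCP3, a meiotic protein that the study lists among chromatin remodeling genes, had signals of 573 in I2, 443 in I9, 475 in N2, 1497 in N7, 401 in P1 and 300 in P4, while SC P5 had 37.1 and SC P10 40. It was 13.7-fold higher in eSLCs (log2 difference 3.78, SE 0.434, adjusted p = 0.0011, limma), and N7 was its highest line where it was the lowest of PADI4.

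The question of origin was asked by comparing each origin with SCs and the origins with each other. The 3 comparisons against SCs share the same SC arrays. In IVP-eSLCs 4 of the 9 genes were called higher, in NT-eSLCs 5 and in PA-eSLCs 5, with none lower. SUZ12 made the difference in count, at 0.98 in IVP-eSLCs, just under 2-fold, and 1.05 and 1.11 in NT- and PA-eSLCs. The SUZ12 call was gained in IVP-eSLCs without SC P10 (1.26), with the slide as a block (1.13) and with the mean of its probes (1.07). It was lost in NT-eSLCs without N2 (1.04), N7 (1.06) or SC P5 (0.76). In PA-eSLCs it was lost without P4 (1.02) or SC P5 (0.83), with the slide as a block (0.96) and with quantile normalization (0.97). In both NT- and PA-eSLCs it was also lost with the processed signal, the series matrix values and the methods' t-test. EED was called in NT-eSLCs without N2 (1.14). The shares of all genes tested called higher were 17.7%, 15.8% and 20.4%, and lower 14.6%, 13.9% and 14.9%. The median over the 9 genes was 0.98, 1.05 and 1.11, against 0.20, 0.17 and 0.27 over all genes.

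**Figure D4:**
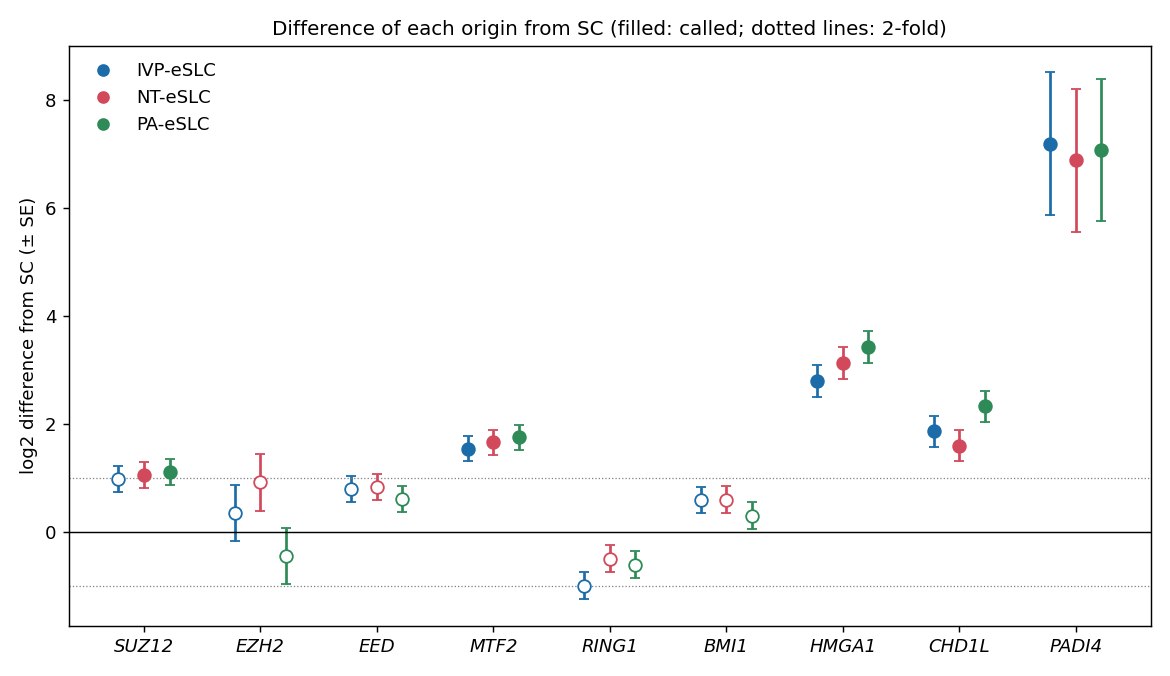
Log2 difference from SCs of each measured gene in IVP-, NT- and PA-eSLCs, with bars of 1 SE from the fit of all 8 arrays. Filled points were called and dotted lines mark 2-fold. EZH2 lies between -0.45 and 0.92 with the widest bars after PADI4, and RING1 lies below 0 in each origin.

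Between origins, none of the 9 genes was called, either for NT- against IVP-eSLCs or for PA- against IVP-eSLCs, where 0% and 0% of all genes tested were called. Both IVP lines lay on slide 1 and both PA lines on slide 2. Between these lines, origin and slide cannot be told apart. Without adjustment, 0 and 0 of the 9 genes had a p under 0.05 by limma, 0 and 2 by the methods' t-test, and 306 and 568 of all genes by limma. The largest differences among the 9 were those of EZH2, at 0.57 (SE 0.520) for NT- and -0.80 (SE 0.520) for PA-eSLCs, followed by HMGA1 for PA-eSLCs at 0.63 (SE 0.295). The second HMGA1 probe did not show this difference. Against SCs it had 3.85 in IVP-, 3.99 in NT- and 3.82 in PA-eSLCs. For SUZ12, the differences were 0.07 and 0.13 (SE 0.240). With 2 lines in each origin, the spread between lines of 1 origin, 2.85-fold for EZH2 in IVP-eSLCs and 16.1-fold for PADI4 in NT-eSLCs, was larger than the differences between origins for these genes.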

How the data were processed

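The authors hybridized RNA of 8 samples on one-colour arrays, scanned them with Feature Extraction (version 11.5.1.1 per the file headers) and normalized the values with GeneSpring GX. They deposited the scanner output, with linear signal intensities not normalized between arrays, and a series matrix of normalized intensities whose procedure is not given in the sources used here. Control spots and 1 to 11 outlier spots per array were left out, and spots of 1 probe were averaged, for 43653 probes. No spot was saturated. Background-subtracted signals were scaled to the 75th percentile of each array, and log2 values were taken after signals under 13.3 had been set to 13.3. The processed signal served only as an alternative. Its rank correlation (Spearman) with background-subtracted values was 0.161 to 0.216 in 6 files, against 0.971 to 0.973 in I2 and N2.

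Accessions were matched without version to RefSeq symbols (assembly ARS-UCD2.0), which named 26743 probes. A gene was represented by its brightest probe and entered the test when both arrays of some condition were well above background. limma (version 3.58.1, R version 4.3.3) was fitted to all 8 arrays with a mean per condition and tested on simulated data. eSLC minus SC is the mean of the 3 origin means minus the SC mean. Members and gene lists were chosen with earlier results of these data known. Named genes are the members, SYCP3, PADI2, all PRC2 and PADI genes measured, the 3 nearest profiles of each member, and at most 3 genes per list and direction called against SCs over the origins and in each of them. Not every gene under this rule is reported here. The 21 alternatives cover scaling, background correction, signal column, floor, filter, probes, samples, slide, test and leaving out each array. The normexp correction was run on median signals, since the files hold no mean signal. Values within slides and the chromosome medians were added after seeing the data. Promoters were not analysed here. Figures were drawn with matplotlib (version 3.10.9, Python version 3.11.15).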

Additional observations from a re-analysis of the deposited data

How the results depend on the processing

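The counts of genes called against SCs depended on the signal column, on the test and on SC P5. With the processed signal, 2 genes were called higher over the 3 origins and 2 in each of IVP-, NT- and PA-eSLCs. With the series matrix values the counts were 3 over the origins, and 2, 3 and 2 by origin. With the methods' t-test after adjustment they were 1 in IVP-, 0 in NT- and 2 in PA-eSLCs, and with only the conditions compared 3 in NT-eSLCs. Leaving out 1 array at a time gave 3 to 5 genes over the origins, 3 to 4 in IVP-, 2 to 5 in NT- and 3 to 5 in PA-eSLCs, with the lowest counts without SC P5 (3 over the origins, 2 in NT- and 3 in PA-eSLCs). RING1 was called lower in IVP-eSLCs (1 gene) with median scaling, with quantile normalization and without I9, so that the count ranged from 0 to 1. Quantile normalization moved the median of all genes from 0.23 to 0.12 over the origins.

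Signs turned only for differences that were not called, apart from that of SUZ12 in PA-eSLCs, which was 0 with the processed signal. In that signal the SUZ12 values of P1, P4, SC P5 and SC P10, at 1.18 to 1.74, were all set to the floor. With the series matrix values, EZH2 was -0.21 over the origins, -0.66 in IVP-eSLCs and 0.53 in PA- against IVP-eSLCs, EED was -0.33 in NT-eSLCs, -0.68 in NT- and 0.33 in PA- against IVP-eSLCs, BMI1 was -0.12 and CHD1L 1.19 in NT- against IVP-eSLCs, PADI4 was 1.25 in NT- and 2.69 in PA- against IVP-eSLCs, and SUZ12 was -0.17 and CHD1L -0.0445 in PA- against IVP-eSLCs. With the processed signal, EZH2 was -0.21 in IVP-eSLCs and 0.19 in PA- against IVP-eSLCs, and, in NT- and PA- against IVP-eSLCs, SUZ12 was -0.38 and -5.68, CHD1L 1.56 and -0.39, and PADI4 1.62 and 2.34, while EED was -0.30 in NT- against IVP-eSLCs. With the slide as a block, SUZ12 was -0.0774 and -0.164 in NT- and PA- against IVP-eSLCs, and EED 0.0736 in the latter. Within slide 2, EZH2 was -0.41.

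Without 1 array at a time, EZH2 ranged from -0.10 to 0.64 over the origins, from -0.41 to 1.104 in IVP-eSLCs and from -0.19 to 1.32 in NT- against IVP-eSLCs. In that last comparison EED ranged from -0.26 to 0.35, MTF2 from -0.0205 to 0.25, BMI1 from -0.22 to 0.23, HMGA1 from -0.0931 to 0.74 and PADI4 from -2.32 to 1.69. PADI4 in PA- against IVP-eSLCs ranged from -1.16 to 0.93. No paired analysis was possible because the labels give no number that pairs arrays of different conditions.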

Other observations

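In the series matrix, the 2 arrays of a condition were closer for some of these genes than in the scanner's background-subtracted signal, and farther apart for others. For PADI4 the arrays of a condition were at most 1.05-fold apart in the matrix as deposited, and up to 16.1-fold apart in the normalized signal. For CHD1L they were at most 1.03-fold and 1.42-fold apart, and for MTF2 at most 1.03-fold and 1.39-fold. The NT arrays ran the other way for SUZ12, at 6.31-fold apart in the matrix and 1.02-fold in the signal, and for BMI1, at 8.88-fold and 1.34-fold. The values of SC P5 and SC P10 lay within 1% of each other in the matrix for the brightest probe of 5 of the 9 genes, EZH2, EED, MTF2, RING1 and CHD1L. For EZH2 this holds for its brightest probe alone, at 6286 and 6286 in the units of the matrix, while its other probes were 2.69% to 38.1% apart there.

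Probes of the same gene also ran differently across lines in the matrix. With each column of the matrix scaled to its 75th percentile, the brightest EZH2 probe was highest in N2 (7029) and lowest in N7 (1479), whereas its 5 other probes were highest in N7 and next in I9. In the background-subtracted signal all 6 probes put I9, N2 and N7 highest.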
